A study of Mus musculus with 6 samples.

Results

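Insulin-like growth factors, their receptors and their binding proteins are described here in RNA from fibroblasts of the enthesis, the attachment of tendon to bone, of SKG mice. The 10 genes were taken by symbol from the 17419 genes of the deposited table: the ligands Igf1 and Igf2, the receptors Igf1r and Igf2r, and the binding proteins Igfbp2, Igfbp3, Igfbp4, Igfbp5, Igfbp6 and Igfbp7. The family was chosen by symbol with its read counts in the diseased and un-diseased samples known, so the differences given for them are a description and carry no test. All 10 passed the filter on low counts. The study has 3 samples from mice labelled diseased and 3 from mice labelled un-diseased, all of the SKG strain, which carries a mutation of Zap70 in all animals and is prone to autoimmune arthritis. The sample titles add NTS for the diseased and UN for the un-diseased samples, and neither is spelled out. Age, sex, the way disease was brought about, how the fibroblasts were isolated and whether each sample is an animal of its own are not given in the sources used here, so the spread behind the p-values may be that of technical repeats.

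IGF-I and IGF-II are small secreted growth factors related to insulin. Both signal through the tyrosine kinase receptor encoded by Igf1r, while the product of Igf2r, the cation-independent mannose 6-phosphate receptor, takes up IGF-II for degradation and sorts lysosomal enzymes. The classical binding proteins hold most secreted IGF, prolong its life and either limit or favour its access to the receptor, until proteases cut them. Igfbp7 encodes a related matrix protein with low affinity for IGF. In tendon and bone the ligands are known as stimulators of matrix synthesis and cell growth.

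The sequence before the transcription start is shown for the 3 genes with the largest differences, Igf2 and Igfbp3, which were lower in diseased samples, and Igfbp4, which was higher on average. Each window holds the 250 bases before a start in RefSeq (GRCm38.p6), written 5′ to 3′ on the gene's strand. Igf2 has 4 starts in that table, and the one shown lies nearest to the 3′ end of the gene, at chr7:142657497-142657746 on the minus strand. The Igfbp3 window is chr11:7213924-7214173 on the minus strand and the Igfbp4 window chr11:99040994-99041243 on the plus strand. Capitals mark matches, on either strand, to the promoter element TATAAA, to the word CCAAT bound by nuclear factor Y, to the word GGGCGG bound by Sp1 or to the word CATTCC at the core of TEAD sites, none of which overlap another in these windows.
Igf2: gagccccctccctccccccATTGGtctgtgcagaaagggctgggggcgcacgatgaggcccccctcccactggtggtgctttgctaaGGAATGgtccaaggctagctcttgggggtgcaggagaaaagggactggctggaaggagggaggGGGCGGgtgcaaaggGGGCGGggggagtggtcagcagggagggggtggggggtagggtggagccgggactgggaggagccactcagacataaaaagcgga
Igfbp3: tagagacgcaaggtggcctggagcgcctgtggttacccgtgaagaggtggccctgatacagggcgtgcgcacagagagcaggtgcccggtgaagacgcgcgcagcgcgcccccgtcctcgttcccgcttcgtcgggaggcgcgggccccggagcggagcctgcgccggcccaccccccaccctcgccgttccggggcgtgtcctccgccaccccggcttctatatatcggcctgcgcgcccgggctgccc
Igfbp4: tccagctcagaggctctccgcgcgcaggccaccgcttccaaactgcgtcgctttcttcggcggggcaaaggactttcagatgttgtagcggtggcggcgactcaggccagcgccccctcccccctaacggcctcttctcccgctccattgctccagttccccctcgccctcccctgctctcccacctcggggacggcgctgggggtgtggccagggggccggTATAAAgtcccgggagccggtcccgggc

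The Igf2 window held GGGCGG at 100 and 85 bases before the start, CCAAT as its reverse complement at 231 and CATTCC as its reverse complement at 163. The Igfbp4 window held TATAAA at 28 bases before the start. None of the 4 words was found in the Igfbp3 window. Only exact matches were searched, so the stretch tatatat near the end of that window was not counted. Whether that stretch serves as a promoter element was not tested. Among 32851 windows of the same length in the table, 12.4% held TATAAA, 33.8% CCAAT, 32.7% GGGCGG and 12.6% CATTCC. The counts were made per gene and do not show which start of Igf2 was used. The base composition of the windows shown was 66% G and C for Igf2, 73.2% for Igfbp3 and 69.2% for Igfbp4, against a median of 52.4% in the table. The windows before the other starts of Igf2 had 50.8%, 47.6% and 68.8%, and held other sets of the words.

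Total estimated counts were 16720612 to 18290873 per sample. Values below are CPM (read counts scaled to a fixed library size, with TMM factors), on which 3 counts, the limit that a count of 0 allows, were worth 0.147 to 0.188, for counting error only. Fold changes are log2 values, diseased minus un-diseased, with their standard error (SE) from edgeR's quasi-likelihood fit over 13264 genes. All 10 fibroblast markers and all 7 tendon markers on the lists used here were detected. Their summed levels were 85449 to 119317 and 7049 to 9733 CPM in diseased samples, and 64479 to 90857 and 5097 to 5846 CPM in un-diseased ones. Markers of macrophages were detected too, at a summed 212.8 to 563.7 CPM in diseased and 46 to 274.9 CPM in un-diseased samples. Chondrocyte markers summed to 231.9 to 525.9 CPM in diseased and 128 to 241.7 CPM in un-diseased samples. Pericyte markers summed to 186.1 to 257.1 and 220.8 to 256.8 CPM. Neutrophil markers summed to 55.6 to 156.8 and 6.13 to 159.3 CPM. Means were higher in diseased samples for 17 of 18 macrophage, 8 of 8 chondrocyte, 4 of 8 pericyte and 8 of 10 neutrophil markers. The part of these cells in the results was not tested.

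Igf2 was the member with the largest difference. Its level was 21.2, 33.4 and 25.6 CPM in diseased replicates 1, 2 and 3, and 137.5, 173.8 and 110.5 CPM in un-diseased replicates 1, 2 and 3. Every diseased sample lay below every un-diseased sample, and the gap between the groups was wider than the spread of either group. The means were 26.7 ± 6.17 and 140.6 ± 31.7 CPM (SD, n = 3 in each group), a log2 fold change of -2.40 (SE 0.22), or 5.27-fold lower. Ordered from the lowest fold change upward, Igf2 was number 19 of the 13264 genes. In bulk RNA, fewer cells that express a gene and less RNA per cell cannot be told apart. Igf2 (gene 16002) lies on chromosome 7 from 142650768 to 142666816 (GRCm38). In GENCODE M21, 3596 of its 5723 exonic bases also belong to the gene model Gm49394 on the same strand and 98 to the antisense gene Igf2os, neither of which is among the genes analysed here. Reads of these transcripts may be counted as Igf2.

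The other ligand, Igf1, stood at a higher level and did not separate the groups. It had 447.1, 641.1 and 753.8 CPM in diseased replicates 1, 2 and 3, and 436.1, 439 and 661.4 CPM in un-diseased ones. Replicate 3 was the highest and replicate 1 the lowest in both groups, and the ranges overlapped. The log2 fold change was 0.26 (SE 0.24), with means of 614 ± 155 and 512.2 ± 129.2 CPM (SD, n = 3 each). Within pairs of samples that share a number, the differences in log2 CPM were 0.04, 0.55 and 0.19. Macrophages, a known source of IGF-I, had summed marker levels of 384.1, 563.7 and 212.8 CPM in diseased replicates 1, 2 and 3 and 125, 274.9 and 46 CPM in un-diseased ones. The sample with most Igf1 in each group, replicate 3, thus had the lowest macrophage sum of that group. Of 17 tested macrophage markers, 16 had a positive fold change, and none of the 18 on the list was at 0 throughout. By edgeR, 0 of the 17 passed without a block and 7 had an unadjusted p under 0.05, against 3.73% and 27.8% of all tested genes. With the replicate number as a block 16 were higher, where 10.5% of all genes were called higher. The part of macrophages in the Igf1 values was not tested. Igf1 (gene 16000) lies on chromosome 10 from 87858265 to 87937047 and has 8 separate exonic blocks.

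The make-up of ligand RNA differed between the groups without overlap. Per kilobase of exon, which allows levels of different genes to be compared, Igf2 made 7.58%, 8.26% and 5.56% of the summed ligand level in diseased replicates 1, 2 and 3. It made 35.3%, 40.7% and 22.4% in the un-diseased replicates. Un-diseased replicate 3, which had most Igf1 and least Igf2 of its group, was the nearest to the diseased samples. The summed ligand level itself was 66.7 ± 16.2 CPM per kilobase (SD, n = 3) among the diseased against 76.3 ± 9.12 (SD, n = 3) among the un-diseased samples, a difference smaller than the spread within the diseased group.

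**Figure D1:**
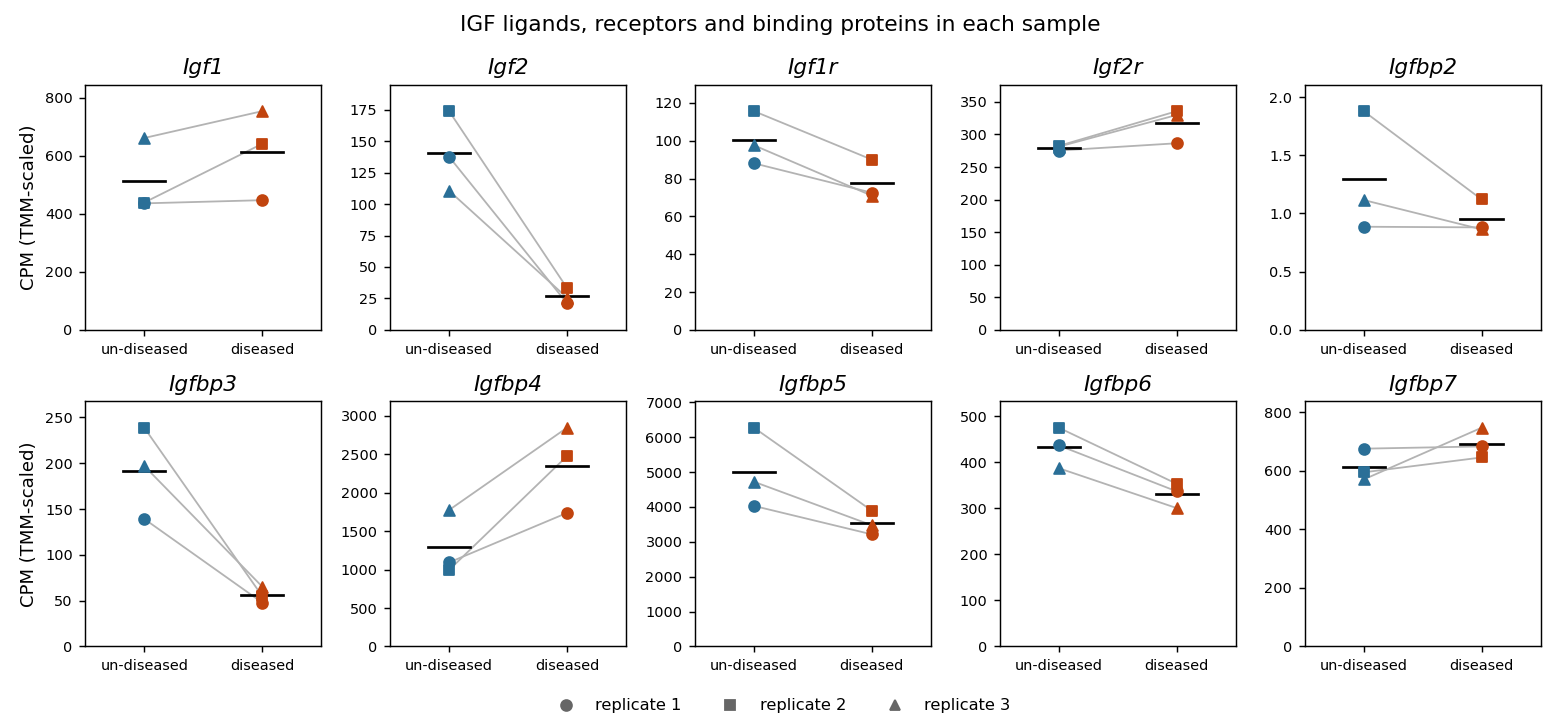
CPM after TMM scaling (y axis, a scale of its own for each gene) of the 10 genes in un-diseased (blue) and diseased (red) samples; marker shapes give the replicate number, grey lines join samples of the same number and black bars are means of 3 samples. For Igf2 the diseased samples lie between 21.2 and 33.4 CPM and the un-diseased ones between 110.5 and 173.8; for Igf1 the ranges overlap.

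Of the receptors, Igf1r was lower and Igf2r higher in diseased samples, both by little. Igf1r, the signalling receptor, had 72.5, 90 and 71 CPM in diseased replicates 1, 2 and 3 and 88.1, 115.6 and 97.6 CPM in un-diseased ones. The ranges overlapped because diseased replicate 2 stood above un-diseased replicate 1, while each diseased sample was below the un-diseased sample of its own number. The log2 fold change was -0.37 (SE 0.14), with means of 77.8 ± 10.6 and 100.4 ± 14 CPM (SD, n = 3 each). Igf2r had 286.5, 335.8 and 330 CPM in diseased replicates and 275.4, 282.5 and 281.4 CPM in un-diseased ones. The groups did not overlap, but diseased replicate 1 lay only just above the un-diseased samples, and the log2 fold change was 0.18 (SE 0.11). The spread of the un-diseased Igf2r values was small, at 279.8 ± 3.83 CPM against 317.4 ± 26.9 CPM in the diseased group (SD, n = 3 each). Igf2r (gene 16004) lies on chromosome 17 from 12682406 to 12769706, and its antisense RNA gene Airn overlaps it with 0 shared exonic bases in GENCODE M21. Igf1r (gene 16001) lies on chromosome 7 from 67952257 to 68233668.

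Igfbp3 showed the largest difference among the binding proteins. It encodes the main carrier of IGF in blood, which is also made by fibroblasts. Diseased replicates 1, 2 and 3 had 48, 55.2 and 65.5 CPM, and un-diseased ones 139.3, 238.8 and 197.1 CPM. All diseased samples were below all un-diseased ones, and un-diseased replicate 2 was the highest of the 6. The means were 56.2 ± 8.78 and 191.7 ± 50 CPM (SD, n = 3 each), a log2 fold change of -1.77 (SE 0.21), or 3.41-fold lower, which placed Igfbp3 at number 60 from the lowest fold change upward. Igfbp3 (gene 16009) lies on chromosome 11 from 7206086 to 7215498.

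Igfbp4, an inhibitor of IGF action that the protease pappalysin-1 cuts, went the other way. Its level was 1737, 2476 and 2845 CPM in diseased replicates 1, 2 and 3 and 1093, 995.3 and 1775 CPM in un-diseased ones. The ranges overlapped slightly, since un-diseased replicate 3 exceeded diseased replicate 1. The log2 fold change was 0.87 (SE 0.28), with means of 2353 ± 564 and 1288 ± 425 CPM (SD, n = 3 each). Within pairs 1, 2 and 3 the differences in log2 CPM were 0.67, 1.31 and 0.68, all upward. As for Igf1, replicate 3 had the highest value in both groups. Igfbp4 (gene 16010) lies on chromosome 11 from 99040005 to 99052655.

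Igfbp5, a binding protein held in the extracellular matrix, had the highest CPM of the 10 genes, before scaling for length. It was lower in diseased samples. It had 3214, 3893 and 3475 CPM in diseased replicates 1, 2 and 3 and 4029, 6271 and 4722 CPM in un-diseased ones. The groups did not overlap, and replicate 2 was the highest in both. The log2 fold change was -0.51 (SE 0.21). Igfbp6, which prefers IGF-II to IGF-I, had 336.8, 353.2 and 300.5 CPM in diseased and 436.6, 475 and 387.1 CPM in un-diseased replicates 1, 2 and 3. Its groups did not overlap either, the within-pair differences in log2 CPM were -0.37, -0.43 and -0.37, and the log2 fold change was -0.39 (SE 0.13). Of the 10 genes it had the most even within-pair differences.

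Igfbp7 and Igfbp2 did not separate the groups. Igfbp7 had 683.8, 646.1 and 747.7 CPM in diseased replicates 1, 2 and 3 and 676.1, 595.3 and 570.9 CPM in un-diseased ones, with a log2 fold change of 0.17 (SE 0.13). Un-diseased replicate 1 exceeded diseased replicate 2. Its exons share 85 bases with Polr2b on the opposite strand, and whether counting used strand is not given. Igfbp2 was near the lower limit of measurement, with 16 to 18 estimated counts in diseased and 17 to 30 in un-diseased samples. Its log2 fold change of -0.43 (SE 0.37) was about the size of its error. Igfbp2 and Igfbp5 are neighbours on chromosome 1, from 72824480 to 72852474 and from 72858065 to 72874865, yet stood near opposite ends of the levels measured. Igfbp6 (gene 16012) lies on chromosome 15 from 102144186 to 102149512 and Igfbp7 (gene 29817) on chromosome 5 from 77349240 to 77408045.

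At an adjusted p of 0.05 over all genes (edgeR, quasi-likelihood, Benjamini-Hochberg), 0 members were called higher and 2 lower, Igf2 and Igfbp3. Of all 13264 tested genes, 3.73% were called, 1.61% higher and 2.13% lower. An unadjusted p under 0.05 was reached by 6 of the 10 and by 27.8% of all tested genes. With the replicate number as a block, 1 member was called higher (Igfbp4) and 4 lower (Igf2, Igfbp3, Igf1r and Igfbp6), where 10.5% of all genes were called higher and 13.3% lower. With a pair of samples left out of that fit, Igf1r was no longer called without replicate 2 or 3 and Igfbp6 without any of the 3. The groups did not overlap for 5 members, 1 higher and 4 lower, and for 31.9% of all tested genes. The authors' deposited table gave 4 members a q-value below 0.05 (Igf2, Igfbp3, Igfbp4 and Igfbp6), and 7.81% of all genes there. Since this comparison chose the members, nothing is read from these counts. The call of Igf2 was lost without diseased replicate 3, and that of Igfbp3 without diseased replicate 3 or un-diseased replicate 2 or 3, while the fold changes without any 1 sample stayed between -2.59 and -2.22 for Igf2 and between -1.96 and -1.59 for Igfbp3. The median log2 fold change was -0.38 over the 10 members and 0.02 over all tested genes. Since the members were chosen with this contrast known, nothing is read from that either.

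**Figure D2:**
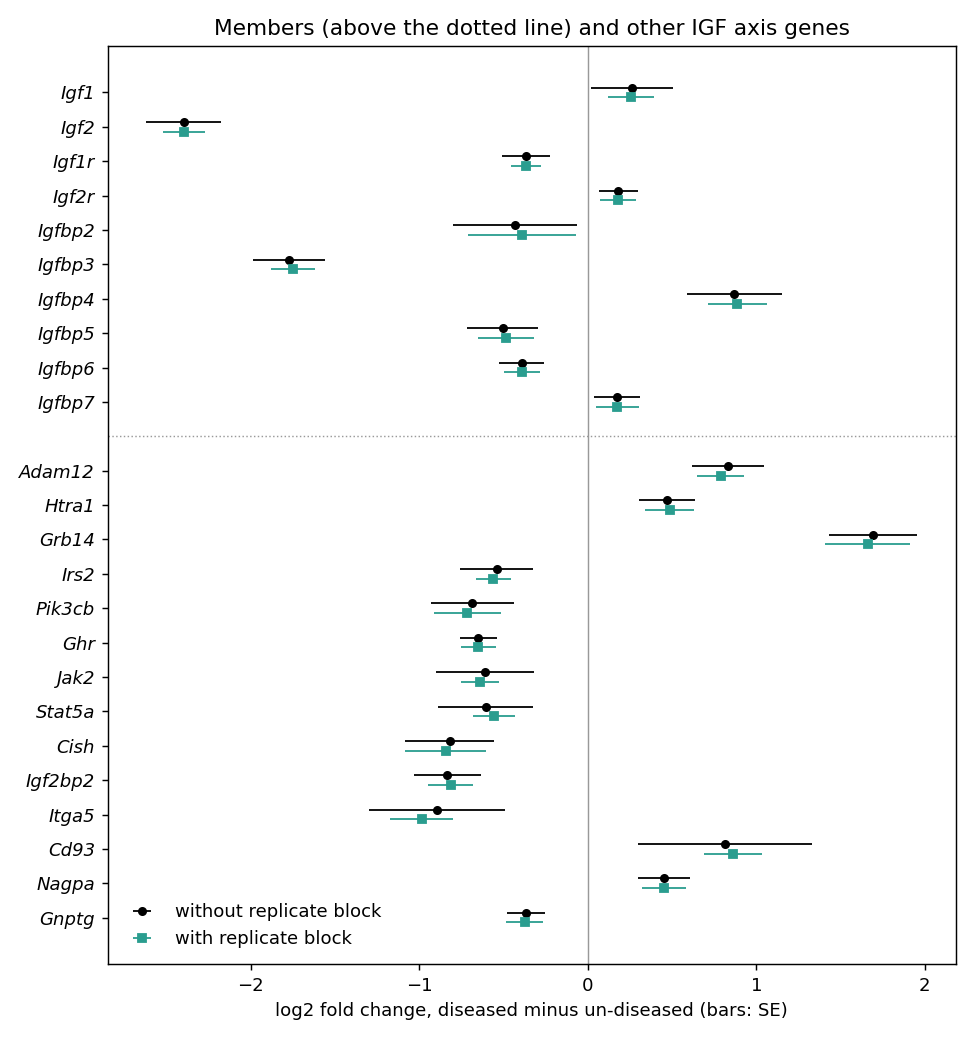
Log2 fold change, diseased minus un-diseased (x axis), with SE as bars, for the 10 members above the dotted line and the other genes of the IGF axis that the text gives as called below it, without (black circles) and with (green squares) the replicate number as a block. Igf2 and Igfbp3 lie farthest to the left at -2.40 and -1.77, Grb14 farthest to the right at 1.69, and the block shortened most bars without moving any point across 0.

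Scaled per kilobase of exon, the binding proteins led. Igfbp5 had 833.8 ± 191.1 CPM per kilobase in un-diseased samples, Igfbp7 507.9 ± 45.6, Igfbp6 389.3 ± 39.6 and Igfbp4 291.6 ± 96.2 (SD, n = 3 each). Igfbp3 with 61.2 ± 16 and Igf1 with 51.7 ± 13 followed, then Igf2r with 30.1 ± 0.411, Igf2 with 24.6 ± 5.55, Igf1r with 5.98 ± 0.834 and Igfbp2 with 0.7 ± 0.281. The sample ranges of the neighbours Igfbp6 and Igfbp4, Igfbp3 and Igf1, and Igf2r and Igf2 overlapped, so those places are not resolved. Igfbp4, Igfbp5, Igfbp6 and Igfbp7 ranked above 99% of the tested genes on this scale.

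In diseased samples the order was Igfbp5 (587.3 ± 57), Igfbp7 (572.8 ± 42.5), Igfbp4 (532.8 ± 127.8), Igfbp6 (296.9 ± 24.2), Igf1 (62 ± 15.7), Igf2r (34.1 ± 2.89), Igfbp3 (18 ± 2.8), Igf2 (4.67 ± 1.08), Igf1r (4.64 ± 0.631) and Igfbp2 (0.517 ± 0.0779), all in CPM per kilobase (SD, n = 3 each). The first 3 overlapped each other's ranges, as did Igf2 and Igf1r. With the length of the longest transcript in place of all exons, Igfbp4 stood first in diseased samples with 614.2 and Igf1r (6.82) above Igf2 (5.66). Igfbp3 thus went from the level of Igf1 to below that of Igf2r, and Igf2 from the level of Igf2r to that of Igf1r.

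**Figure D3:**
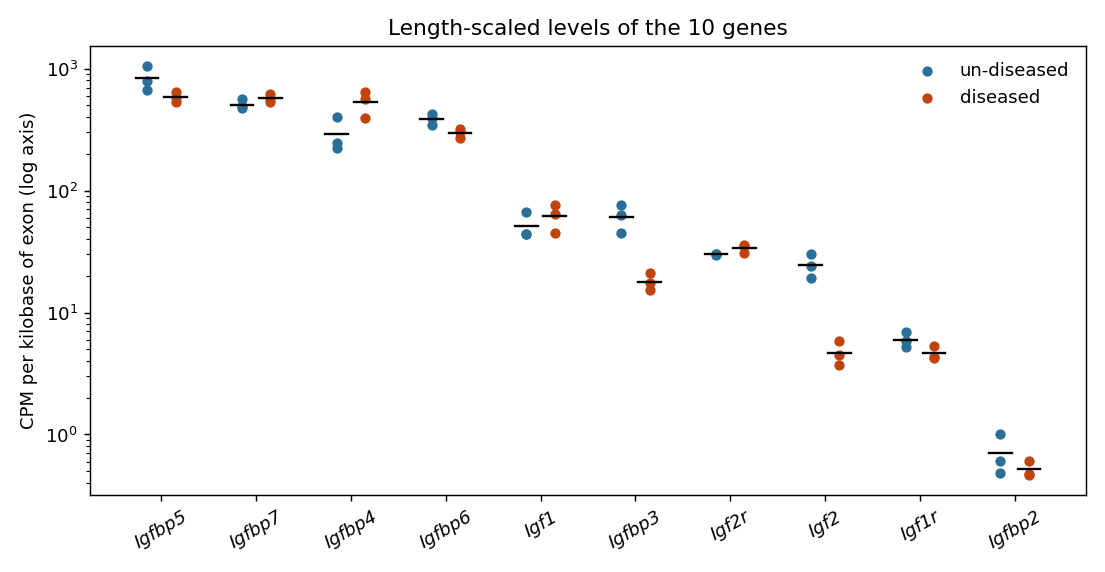
Levels in CPM per kilobase of exon (log y axis) of the 10 genes, ordered by their mean over all 6 samples; points are samples and black bars means of 3, un-diseased in blue and diseased in red. Igfbp5, Igfbp7, Igfbp4 and Igfbp6 lie above 200 in every sample and Igfbp2 at about 1 or less, while Igf2 and Igfbp3 show separate clouds for the groups.

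The summed length-scaled level of the 6 binding proteins was 2008 ± 172 CPM per kilobase (SD, n = 3) among the diseased against 2085 ± 176 (SD, n = 3) among the un-diseased samples, a difference within the spread of either group. Its make-up differed more than its sum. Igfbp4 made 21.7%, 27% and 30.2% of it in diseased replicates 1, 2 and 3 and 12.9%, 9.94% and 19.4% in un-diseased ones, with no overlap. Igfbp5 made 29.5%, 31.2% and 27.1% in diseased and 35%, 46.1% and 37.9% in un-diseased replicates, again with no overlap. The share of Igfbp3 was 0.891% ± 0.0772 in diseased and 2.91% ± 0.533 in un-diseased samples, and that of Igfbp7 was 28.6% ± 2.77 and 24.6% ± 4.04 (SD, n = 3 each).

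**Figure D4:**
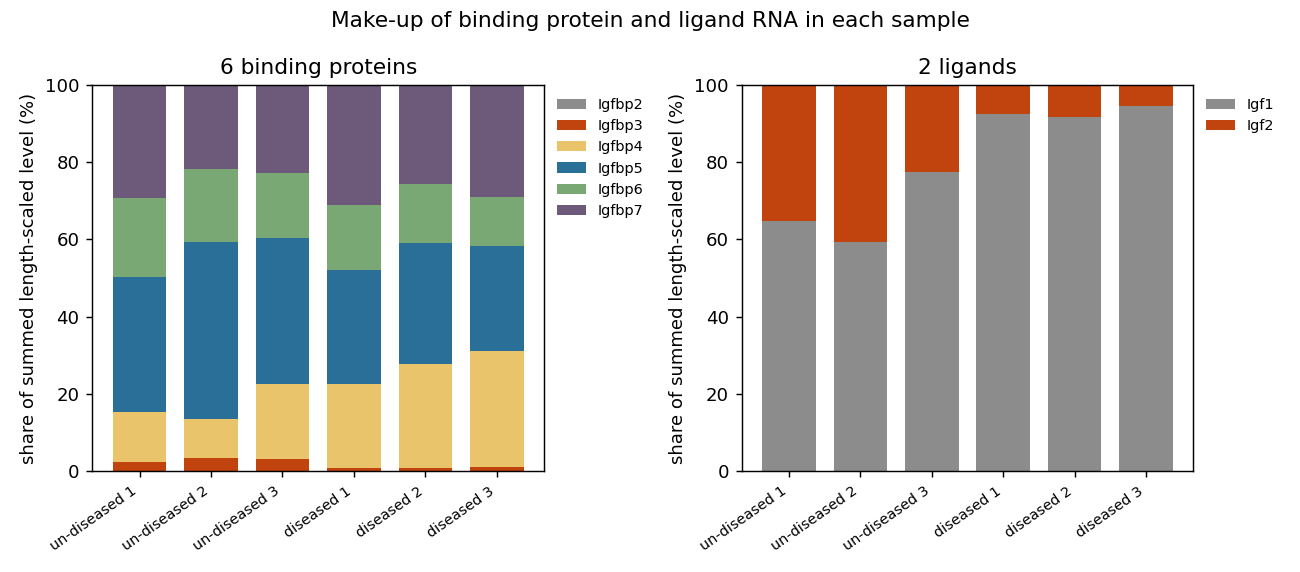
Share of each gene, in percent, in the summed length-scaled level of the 6 binding proteins (left) and the 2 ligands (right) in each of the 6 samples. The Igf2 part of the ligand bars is 22.4% to 40.7% in un-diseased and 5.56% to 8.26% in diseased samples; Igfbp2 is too small a part to be seen.

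Samples of the same number went together only in part. For 8 of the 10 genes the same replicate number was highest in both groups, replicate 2 for Igf2, Igf1r, Igf2r, Igfbp2, Igfbp5 and Igfbp6 and replicate 3 for Igf1 and Igfbp4. This was so for 48.2% of all tested genes. The exceptions were Igfbp3 and Igfbp7. The lowest replicate number was the same in both groups for Igf1, Igf2r, Igfbp3, Igfbp5 and Igfbp6. It differed for Igf2, Igf1r, Igfbp2, Igfbp4 and Igfbp7. The spread within groups also differed between genes: the within-group SD of log2 CPM was 0.41 for Igfbp4 and 0.37 for Igf1, but 0.09 for Igf2r and 0.12 for Igfbp7, with a median of 0.21 over all tested genes.

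Nearness of pattern was measured as the root mean square difference of log2 CPM over the 6 samples, each gene centred on its own mean, among 10187 named genes. Nearest to Igf2 were Cpne7 (0.28), Arl4d (0.30) and the aldehyde dehydrogenase gene Aldh3a1 (0.35). Nearest to Igfbp3 were the chemokine gene Ccl11 (0.22), the prostaglandin transporter gene Slco2a1 (0.22) and Egln3, an oxygen-sensing prolyl hydroxylase (0.22). Gas6, a secreted ligand of the Axl receptor family, was nearest to Igf1 (0.10), with 933.3, 1444 and 1765 CPM in diseased and 970.9, 888.9 and 1258 CPM in un-diseased replicates 1, 2 and 3, followed by Prr16 (0.12) and Rad52 (0.13). Igf2 and Igfbp3 were themselves farther from their nearest gene than Igf1 was. The values were not scaled by each gene's own spread, so this distance also depends on how much a gene differs between samples. Nothing is read from that order. Markers of adipocytes and of epithelium, on lists made by cell type, had lower sums in the diseased samples, as Igf2 and Igfbp3 had. The adipocyte summed level was 102.9, 166.6 and 217.6 CPM in diseased replicates 1, 2 and 3 and 265.8, 330.3 and 270.4 CPM in un-diseased ones, mostly from Lpl, and 0 of 8 had a higher mean in diseased samples. Adipoq, which defines the cell type, was at 0.162 to 0.342 CPM in diseased and 0.248 to 1.51 CPM in un-diseased samples. Of 4 tested adipocyte markers edgeR called 1 lower (Plin4), and 3 with the block, where 2.13% and 13.3% of all genes were called lower. Adipoq, Plin1, Lep and Cidec did not pass the filter on low counts and were not tested. The epithelial sum was low, at 1.52, 2.86 and 1.19 CPM in diseased and 3.86, 6.39 and 4.4 CPM in un-diseased replicates 1, 2 and 3. Perp was the most abundant of its markers, and Krt8 and Krt18 had at most 1 estimated count in any sample. Of the 7 markers 2 had a higher mean in diseased samples. Of 2 tested markers 1 was called lower (Perp), and both with the block, beside the same shares of 2.13% and 13.3% of all genes. The part of these cells in the result was not tested.

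Of the other genes of the IGF axis, 44 were in the table and 41 tested. Among these, 1 rose and 1 fell in diseased samples by edgeR's test over all genes, where 3.73% of all genes were called, and once replicate numbers entered as a block 6 rose and 9 fell, where 23.9% of all genes were called. Their median log2 fold change was -0.07. An unadjusted p under 0.05 was reached by 12 of the 41, against 27.8% of all tested genes. Igfbp1 and the imprinted RNA gene H19 beside Igf2 were not analysed here.

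Among relatives of the insulin receptor and the signalling genes downstream of them, 1 of 17 rose and 0 fell. Grb14, an adaptor that inhibits signalling of the insulin receptor, had 3.72, 6.16 and 5.07 CPM in diseased and 1.67, 1.38 and 1.55 CPM in un-diseased replicates 1, 2 and 3. All diseased samples lay above all un-diseased ones, with a log2 fold change of 1.69 (SE 0.26, edgeR adjusted p = 0.0259). The call of Grb14 was lost without diseased replicate 2 (adjusted p = 0.0515) or 3 (0.132) and without un-diseased replicate 2 (0.0914) or 3 (0.0762). With the block 2 of the 17 rose, Grb14 among them, and 2 fell, where 10.5% of all genes were called higher and 13.3% lower. Those that fell were the insulin receptor substrate gene Irs2 and the kinase subunit gene Pik3cb, at -0.56 (SE 0.10) and -0.71 (SE 0.20). Their edgeR adjusted p with the block was 0.00841 and 0.0363, and without it 0.158 and 0.133. The block call of Irs2 was lost without replicate 3 (0.0612), and that of Pik3cb without replicate 2 or 3 (0.0983 and 0.18). The imprinted adaptor gene Grb10 had 297.1 ± 38.4 CPM (SD, n = 3) among the diseased against 269.3 ± 4.12 (SD, n = 3) among the un-diseased samples, with a log2 fold change of 0.14 (SE 0.13).

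Growth hormone signalling, which drives Igf1 transcription in liver and other tissues, held 6 tested genes, of which 0 rose and 1 fell. The receptor gene Ghr had 102.5, 91.2 and 87.4 CPM in diseased and 141.7, 140.9 and 158.3 CPM in un-diseased replicates 1, 2 and 3. The groups lay far apart relative to their spread, with a log2 fold change of -0.65 (SE 0.11, edgeR adjusted p = 0.0282). That call was lost without diseased replicate 1, 2 or 3 (adjusted p = 0.0538, 0.0566 and 0.147) and without un-diseased replicate 2 or 3 (0.0914 and 0.0855), with fold changes between -0.72 and -0.59. With the block 4 of the 6 fell, where 13.3% of all genes were called lower. Besides Ghr these were the kinase gene Jak2 (-0.64, SE 0.11), Stat5a (-0.56, SE 0.12) and the feedback inhibitor gene Cish (-0.84, SE 0.24). Their edgeR adjusted p with the block was 0.00713, 0.0171 and 0.0385. The block call of Jak2 was lost without replicate 3, that of Stat5a without replicate 2 or 3, and that of Cish without replicate 1 (-0.46) or 3 (-1.03). An unadjusted p under 0.05 was reached by 2 of the 6, against 27.8% of all tested genes. All 6 fold changes were negative, with a median of -0.61 against 0.02 over all tested genes. The list was chosen with earlier results of these data known, so nothing is read from this.

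The proteases and carriers had 0 calls among 7 tested genes. An unadjusted p under 0.05 was reached by 2 of the 7, against 27.8% of all tested genes. With the block 2 rose, where 10.5% of all genes were called higher. These were Adam12 and Htra1, which encode proteases able to cut binding proteins, at 0.79 (SE 0.14) and 0.49 (SE 0.14), with edgeR adjusted p of 0.00759 and 0.0432 with the block and 0.0722 and 0.131 without it. The block call of Adam12 was lost without replicate 3 (0.0625) and that of Htra1 without replicate 1 or 2 (0.185 and 0.122). Adam12 had 136.4, 252.9 and 177 CPM in diseased and 101.4, 113 and 103.7 CPM in un-diseased replicates, with no overlap. Pappa, whose product cuts the protein of Igfbp4, had 10.7, 24.2 and 22.3 CPM in diseased and 14.4, 16.7 and 18.9 CPM in un-diseased replicates 1, 2 and 3. Its diseased samples lay on both sides of the un-diseased ones, with a log2 fold change of 0.19 (SE 0.29), which turned to -0.017 without diseased replicate 2.

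Of the proteins named for binding IGF2 mRNA, 2 of 3 genes were tested and 0 passed. Both had an unadjusted p under 0.05, as had 27.8% of all tested genes. Igf2bp2 had 14.7, 19 and 15.3 CPM in diseased and 21.3, 32.1 and 33.9 CPM in un-diseased replicates 1, 2 and 3. Its groups did not overlap, and it fell with the block (-0.81, SE 0.13, edgeR adjusted p = 0.00585) but did not pass without it (-0.83, SE 0.20, edgeR adjusted p = 0.0603). Igf2bp3 had 1.16 ± 0.167 and 1.9 ± 0.176 CPM in diseased and un-diseased samples (SD, n = 3 each) and passed neither way.

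Among partners of the binding proteins at the cell surface 0 of 5 passed, and 0 had an unadjusted p under 0.05. With the block Itga5, an integrin chain, fell at -0.98 (SE 0.19, edgeR adjusted p = 0.0096) and Cd93 rose at 0.86 (SE 0.17, adjusted p = 0.0118 by edgeR). The block call of Itga5 was lost without replicate 3 (0.076) and that of Cd93 without replicate 1 or 3 (0.0526 and 0.0625). Without the block, the log2 fold change of Cd93 went from 0.33 to 1.46 as single samples were left out. Itga5 ranged widely within each group, from 349.9 to 1041 CPM in diseased and from 819 to 1504 CPM in un-diseased samples. In the mannose 6-phosphate pathway, which tags the cargo of the Igf2r product, 0 of 4 passed. An unadjusted p under 0.05 was reached by 2 of the 4, against 27.8% of all tested genes. The block called 10.5% of all genes higher and 13.3% lower. With the block Nagpa rose at 0.45 (SE 0.13, edgeR adjusted p = 0.0385) and Gnptg fell at -0.37 (SE 0.11, edgeR adjusted p = 0.041). The call of Nagpa was lost without any 1 of the 3 pairs (0.0603, 0.125 and 0.173) and that of Gnptg without replicate 1 or 3 (0.103 and 0.187). Of the genes next to the members on their chromosomes, 0 of 2 tested passed with or without the block, and 0 had an unadjusted p under 0.05. The more abundant, Tns1, beyond Igfbp5 on chromosome 1, had 268.3 ± 14.9 CPM (SD, n = 3) among the diseased against 311.4 ± 12.5 (SD, n = 3) among the un-diseased samples, which gave a log2 fold change of -0.21 (SE 0.11).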

How the data were processed

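RNA of 3 diseased and 3 un-diseased samples was read in pairs on a BGISEQ-500, per the labels' protocols. The authors deposited 1 table of estimated counts per gene; HISAT2 2.0.4, RSEM 1.3.1, DESeq2 1.4.5 and the build GRCm38 are named in the submitters' processing notes, with no role or order. The authors' deposited log2 ratio, p-value and q-value per gene served only for comparison. The deposited estimated counts include 9.61% with decimals, and each was rounded to a whole number. Genes were kept with filterByExpr (least count 10), scaled with TMM and tested with edgeR 4.0.16 (R 4.3.3), diseased against un-diseased. Alternatives were RLE and upper-quartile scaling, other filters, DESeq2 1.42.0, limma-voom (limma 3.58.1), a threshold of 0.01, a replicate block and leaving out samples or pairs. The fits were tested on simulated counts. These held no effect of the replicate number, so they do not check how the block fit handles one.

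The replicate numbers in the labels were taken to pair the samples. Deviations from the group means correlated over 13264 genes at 0.49, 0.58 and 0.28 for replicates 1, 2 and 3. Deviations from a group mean cancel within the group, so positive correlations of like numbers by themselves lower those of unlike numbers. Between unlike numbers the correlations ranged from -0.53 to 0.14. The highest of these, diseased 3 with un-diseased 1, was above the 0.1 set as the least for pairing. The labels state no pairing, so the block calls rest on a pairing read from these same data. Samples of 1 group did not agree within counting error (chi-square per gene 25.3 or more). Gene positions are from RefSeq, which held 17372 of the 17419 gene numbers, and exonic lengths from GENCODE M21, both on GRCm38. Log2 CPM used a prior count of 2. The members and lists were chosen with earlier results of these data known. Named besides the members were, from each list, up to 3 called genes with the smallest adjusted p, up to 3 more called with the block alone, or otherwise the most abundant gene, and the 3 genes nearest in pattern to Igf1, Igf2 and Igfbp3 whose mean log2 CPM was 2 or more. Of the genes this rule names, 1 is not reported here. Other genes named were chosen after their values were seen.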

Additional observations from a re-analysis of the deposited data

How the results depend on the processing

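Of the members and the other IGF axis genes given with a fold change, Pappa alone changed direction under the alternatives run: its log2 fold change of 0.19 became -0.017 without diseased replicate 2 (-0.017 to 0.48 as single samples were left out) and -0.091 with the replicate block without replicate 2. In the test without a replicate block, 213 genes passed upward and 282 downward. The numbers were 1397 and 1770 with the block, 635 and 882 with DESeq2, 417 and 288 with upper-quartile scaling, and 2 and 2 at a threshold of 0.01. Leaving out 1 sample without the block gave 2 to 354 genes higher and 3 to 721 lower, and leaving out a pair with the replicate block gave 426 to 1013 higher (809 without replicate 2) and 583 to 1556 lower (1274 without replicate 2). Of the members, 0 were higher and 2 lower; 1 and 4 with the replicate block, 1 higher with DESeq2, 0 lower at 0.01, and 0 to 1 higher and 0 to 3 lower when samples or pairs were left out. Of the other axis genes 1 was higher and 1 lower; 6 and 9 with the replicate block, 3 and 3 with DESeq2, 3 higher with upper-quartile scaling, 2 lower with no filter beyond 1 count, 0 and 0 at 0.01, and 0 to 3 higher and 0 to 7 lower when samples or pairs were left out. Upper-quartile scaling moved the median log2 fold change of all genes from 0.02 to 0.10. The cause of these shifts was not tested. Of the 3 genes nearest in pattern, 1 remained for Igf1, 1 for Igf2 and 2 for Igfbp3 when a mean log2 CPM of at least 4 was required. The planned exchange with lengths of the deposited table was not run, since that table as used here has no length column. The longest transcript was used instead, chosen after seeing the data. Depth limits Igfbp2 among the members.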
